A study of Capsicum chinense and Capsicum frutescens with 8 samples.

Results

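The predicted miRNAs of 21 nt are the 212 distinct sequences of exactly 21 letters among the 3225 distinct sequences that the authors listed as predicted miRNAs in 8 small RNA libraries of 2 cultivated peppers. They were chosen by length alone, so their number is fixed by that choice, while their reads, first base, hairpin arm and sharing between libraries are not. The libraries come from stem, flower buds, fruit and fully expanded leaf of C. frutescens (Accession 4) and of C. chinense (Bhut jolokia, a very pungent chilli), 1 genotype each, grown in a glass house. Fruit RNA pools stages from 5 to 60 days after flower opening. Each library was made from a pool of the RNA of 3 biological replicates, so every species and organ has 1 library, and a difference between 2 libraries has no replicate check. The sheets of predicted miRNAs summed to 2031 (stem), 2032 (flower), 15250 (fruit) and 674 (leaf) reads in C. frutescens, against 2473, 6628, 1525 and 809 in the same organs of C. chinense. How deeply each library was sequenced cannot be read from these sheets.

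In plants, most miRNAs are cut from a folded precursor by the enzyme DCL1, which leaves a duplex of about the length studied here with short 3′ overhangs. One strand is then loaded into AGO1, which is known to prefer a 5′ U, and guides the cleavage of matching mRNAs. DCL3 makes longer small RNAs, many of which are loaded into AGO4, known to prefer a 5′ A, and direct DNA methylation. Length and first base are therefore the usual way to describe a plant small RNA.

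The 5 sequences of 21 nt with most reads are printed first, because they are the ones with 10 reads or more in a library. Letters 2 to 8, the seed by which a small RNA first pairs with its target, are in capitals, and all sequences run 5′ to 3′. The authors numbered predicted miRNAs anew in each sheet, and none of the 843 identifiers found in 2 or more sheets kept 1 sequence, so each name is given with its library.
Cap-m0096-3p, C. frutescens fruit: cUCUCGUAcuagguugaauua
Cap-m0091-3p, C. frutescens flower: gCGAGGGGggcgacgcgaugc
Cap-m0364-3p, C. chinense stem: cUGAGAGGcggugguuuaccc
Cap-m0231-5p, C. frutescens stem: aGGAGGGUgcggcggucgcug
Cap-m0072-5p, C. frutescens leaf: gCGAUGCGaggggggcgaugc

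The first of these was listed in all 4 organs of C. frutescens and in no organ of C. chinense. Its reads numbered 4 in stem, 3 in flower, 20 in fruit and 4 in leaf, each time under a 3p identifier. In fruit the 20 reads stood under 2 identifiers, with 15 and 5 reads, and no other 21-nt text had 2 identifiers in a sheet. The other 4 were each listed in 1 library. Cap-m0091-3p had 17 reads in C. frutescens flower and Cap-m0364-3p had 14 reads in C. chinense stem. Cap-m0231-5p had 13 reads in C. frutescens stem and Cap-m0072-5p had 13 reads in C. frutescens leaf. G and C made up 81.0% of the letters of Cap-m0091-3p and 76.2% of those of both Cap-m0231-5p and Cap-m0072-5p, against 38.1% in the sequence of all 4 C. frutescens organs. Cap-m0091-3p and Cap-m0072-5p, from flower and leaf of the same species, share an unbroken run of 13 letters. The sequences were not compared with ribosomal RNA, transfer RNA or a genome here.

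Sequences of 21 nt were a small part of the predictions. They made up 6.57% of the distinct predicted sequences and 2.57% of the predicted reads (807 reads), against 34.3% of the sequences and 25.0% of the reads at 24 nt, and 36.3% of the sequences and 34.3% of the reads at 23 nt. The class at 22 nt held 16.4% of the sequences and that at 20 nt 4.56%. Those at 25 and 26 nt held 1.36% and 0.372% of the sequences, yet 13.5% and 13.9% of the reads. A sequence there had up to 3010 reads in a library at 25 nt and 4331 at 26 nt. All these reads count in the totals behind the read shares of the libraries. By number of sequences the predicted set peaked at 23 and 24 nt, above the length usual for DCL1 products.

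**Figure D1:**
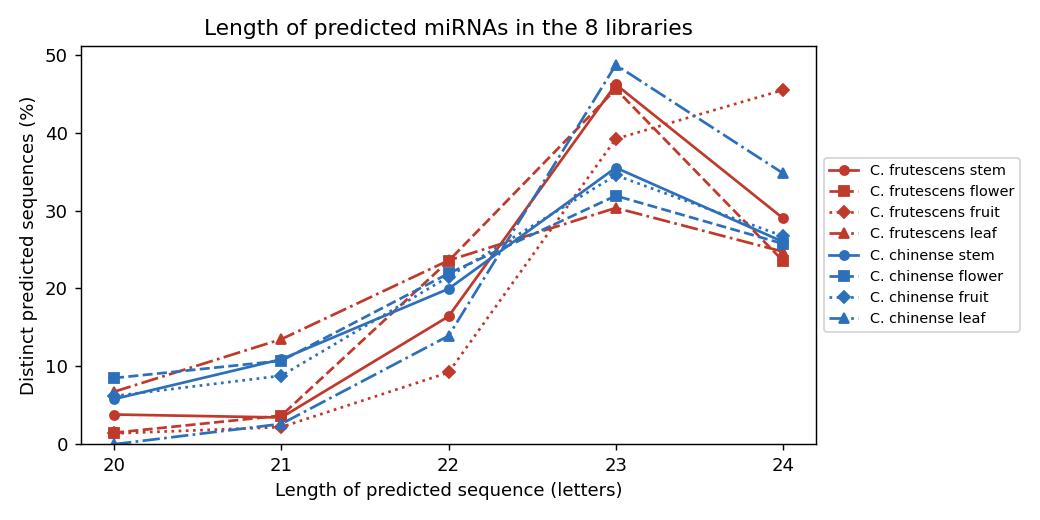
Share of each library's distinct predicted sequences (y axis, %) by length in letters (x axis), with red lines for C. frutescens and blue lines for C. chinense, and 1 line per organ. In 7 of the 8 libraries 23 nt is the most frequent length, in C. frutescens fruit it is 24 nt, and 21 nt lies between 2.20% and 13.5%.

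Between the species, 50 of the 1672 distinct predicted sequences of C. frutescens were of 21 nt (2.99%), against 163 of 1607 in C. chinense (10.1%). By library, the 21-nt sequences numbered 9, 5, 27 and 12 in C. frutescens stem, flower, fruit and leaf, which was 3.44%, 3.68%, 2.20% and 13.5% of the distinct sequences of each. In C. chinense they numbered 47, 87, 27 and 3, or 10.9%, 10.7%, 8.79% and 2.61%. In stem, flower and fruit the share was thus lower in C. frutescens, and in leaf it was higher. The mean share was 5.70% ± 5.23 over the C. frutescens libraries and 8.26% ± 3.88 over those of C. chinense (SD, n = 4 organs each). The mean difference of -2.56 percentage points did not exceed the variation between organs (exact two-sided paired permutation test over organs, p = 0.625). With 4 pairs this test cannot go below 0.13. Without the stem, flower or fruit pair the difference was -0.919, -1.06 and -1.21 points. Without the leaf pair it was -7.03 points, but leaf is the only organ of opposite sign, so the other 3 share a direction by that choice. The smallest p that 3 pairs allow is 0.25.

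By reads the species were ordered in each organ as by sequences. The 21-nt class took 1.97% of the predicted reads in C. frutescens stem (exact Clopper-Pearson 95% interval 1.41 to 2.67) against 6.51% in C. chinense stem (5.57 to 7.56). In flower it took 1.43% in C. frutescens (0.958 to 2.04) against 4.75% in C. chinense (4.25 to 5.29). In fruit it took 0.728% in C. frutescens (0.599 to 0.876) against 6.03% in C. chinense (4.89 to 7.35). In leaf the order turned, with 7.72% in C. frutescens (5.82 to 9.99) against 0.865% in C. chinense (0.349 to 1.77). Within each organ the intervals of the species did not overlap, but they cover counting error only, and reads of amplified libraries without molecular identifiers are not independent molecules. The lack of overlap was not particular to 21 nt. It held in every organ at 20 and 23 nt too, in stem and leaf at 24 nt, and in fruit at 22 nt. The mean difference of the read share was -1.58 points (exact two-sided paired permutation test over 4 organs, p = 0.625).

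**Figure D2:**
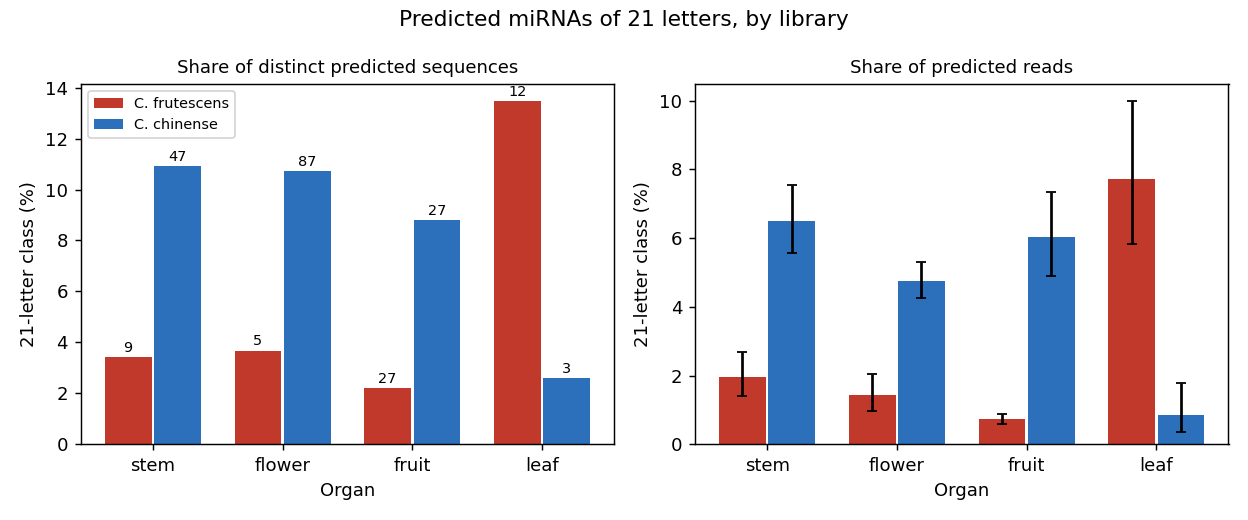
Share of the 21-nt class (y axes, %) among distinct predicted sequences (left, with the number of 21-nt sequences above each bar) and among predicted reads (right, with 95% counting intervals), for C. frutescens (red) and C. chinense (blue) in 4 organs (x axis). The C. frutescens bars are lower in stem, flower and fruit and higher in leaf, where 12 sequences stand against 3.

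The leaf libraries list few predictions, 89 distinct sequences in C. frutescens and 115 in C. chinense, and their leaf shares rest on 52 reads and 7 reads of 21 nt. At 20 nt the species were ordered in each organ as at 21 nt. C. frutescens leaf had 6.74% of its sequences at 20 nt against 0% in C. chinense leaf. In stem the share was 3.82% in C. frutescens against 5.80% in C. chinense, in flower 1.47% against 8.50%, and in fruit 1.39% against 6.19%.

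Most 21-nt predictions rested on 3 reads. A 21-nt sequence had exactly 3 reads in 132 of its 217 listings (60.8%), a listing being 1 sequence in 1 library. This compares with 48.4% of 1131 listings at 24 nt and 40.4% of 1265 at 23 nt. It was not particular to 21 nt, since the share was 70.3% of 148 listings at 20 nt and 51.2% of 555 at 22 nt. These shares pool the libraries, which hold the classes in different proportions. Only 31 listings of 21 nt (14.3%) had 5 reads or more, against 32.2% at 24 nt and 39.3% at 23 nt. At 10 reads or more there were 5 listings (2.30%), against 10.3% at 24 nt and 14.9% at 23 nt. The highest value of a 21-nt sequence in a library was 20 reads, against 725 reads for uUGGGUCGaaguuuuggaggccuu at 24 nt and 1001 reads for uUCGACAUuccagacauguuggu at 23 nt, both in C. frutescens fruit. By reads summed over libraries, the next at 23 nt was gUCCUCUCuuugucuuguuaugu, with 631 reads in C. frutescens fruit. The next at 24 nt was uGGUGUGGgcggggcgggaagaua, with 130 reads in C. frutescens flower and 141 in C. frutescens fruit. Within a single library, another 24-nt sequence reached more, 203 reads in C. frutescens leaf.

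**Figure D3:**
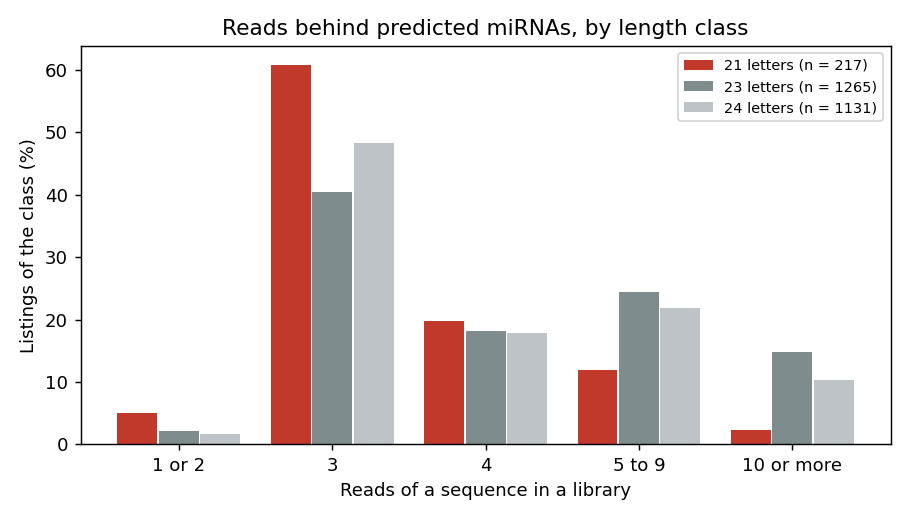
Share of the listings of each length class (y axis, %) by the number of reads of a sequence in a library (x axis), for 21 nt (red), 23 nt (dark grey) and 24 nt (light grey). The 21-nt class stands highest at 3 reads, with 60.8%, and lowest at 10 reads or more, with 2.30%.

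Set against each other within the same library, the median of log2 reads per sequence at 21 nt differed from that at 24 nt by -0.18 on average (SD 0.21, n = 8 libraries), lower in 4 libraries and equal in the other 4 (exact two-sided paired permutation test over libraries, p = 0.13, Benjamini-Hochberg adjusted p = 0.208 over 10 tests between length classes). Against 23 nt the difference was -0.30 (SD 0.27, n = 8), lower in 5 libraries and equal in 3 (exact test as before, p = 0.0625, adjusted p = 0.156). Neither difference passed 0.05. The medians lay between 3 and 5 reads in every class and library.

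The pattern of low counts followed the hairpin arms. Over all lengths 131 entries had under 3 reads, and all 131 were 1 arm of a precursor whose other arm was also listed. The same held for all 11 entries of 21 nt under 3 reads. In all 169 precursors with both arms listed, the arm with more reads had at least 3. A predicted miRNA without a listed partner thus always had 3 reads or more in these sheets.

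A precursor with both arms listed is the form closest to the duplex that DCL1 leaves, and 18 of the 169 had an arm of 21 nt. In 12 of the 17 with a single arm of 21 nt, that arm had fewer reads than its partner, a count not made for other lengths. The lesser arm had under 3 reads in 15 of the 18. In 1 precursor, Cap-m0225 of C. chinense stem, both arms were of 21 nt, with 3 reads for the 5p arm and 2 reads for the 3p arm.
Cap-m0225-5p, C. chinense stem: uUGAGAGAacagagccaucua
Cap-m0225-3p, C. chinense stem: gGUGCUCUaguuccguugcgg
Folded against each other with RNAduplex, these arms formed 14 base pairs, with 3′ overhangs of 1 letter on the 5p arm and 2 letters on the 3p arm. Over the 18 precursors the median was 14 base pairs, from 6 to 17. Both overhangs lay between 1 and 3 letters in 5 of 18 (27.8%), against 45 of the 151 precursors without a 21-nt arm (29.8%), which had a median of 15 base pairs. Overhangs of exactly 2 letters on both arms, the textbook form, occurred in 2 of 18 and in 4 of 151.

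By the arm named in the identifier, 115 of the 217 listings of 21 nt were 5p (53.0%) and 102 were 3p. Per library the 5p share averaged 51.0% ± 13.1 at 21 nt, 43.6% ± 4.91 at 24 nt and 48.8% ± 7.58 at 23 nt (SD, n = 8 libraries each). It was 66.7% in the fruit of both species, with 18 of 27 sequences in each, and 33.3% in C. frutescens stem and in C. chinense leaf, with 3 of 9 and 1 of 3. The mean difference from 24 nt was 7.43 points (exact two-sided paired permutation test over libraries, p = 0.109, Benjamini-Hochberg adjusted p = 0.208), and that from 23 nt was 2.24 points (exact test as before, p = 0.734, adjusted p = 0.816). Neither passed.

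The first base was U in 42 of the 212 sequences of 21 nt (19.8%), A in 75 (35.4%), G in 52 (24.5%) and C in 43 (20.3%). At 24 nt U opened 344 of 1105 sequences (31.1%) and at 23 nt 359 of 1171 (30.7%). U was thus the rarest first base at 21 nt and the most frequent at 23 and 24 nt.

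Within libraries, U opened 33.3%, 20.0%, 14.8% and 16.7% of the 21-nt sequences in C. frutescens stem, flower, fruit and leaf, and 12.8%, 24.1%, 18.5% and 0% in the same organs of C. chinense. At 24 nt the same libraries had 30.3%, 40.6%, 33.9% and 36.4% in C. frutescens and 28.6%, 26.3%, 24.4% and 47.5% in C. chinense. The share was lower at 21 nt in 7 of 8 libraries, the exception being C. frutescens stem with 3 of 9 sequences, and the 0% of C. chinense leaf rests on 3 sequences. The mean was 17.5% ± 9.55 at 21 nt against 33.5% ± 7.79 at 24 nt (SD, n = 8 each), a difference of -16.0 points (exact two-sided paired permutation test over libraries, p = 0.0234, Benjamini-Hochberg adjusted p = 0.0781). At 23 nt the mean was 30.6% ± 2.36, a difference of -13.1 points, lower at 21 nt in 7 of 8 libraries (exact test as before, p = 0.0156, adjusted p = 0.0781). Neither difference passed after adjustment over the 10 tests. Without the pairing by library, an exact permutation test of 8 values against 8 gave an adjusted p of 0.0101 for both. That test ignores that both classes come from the same libraries, so it does not replace the paired one.

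**Figure D4:**
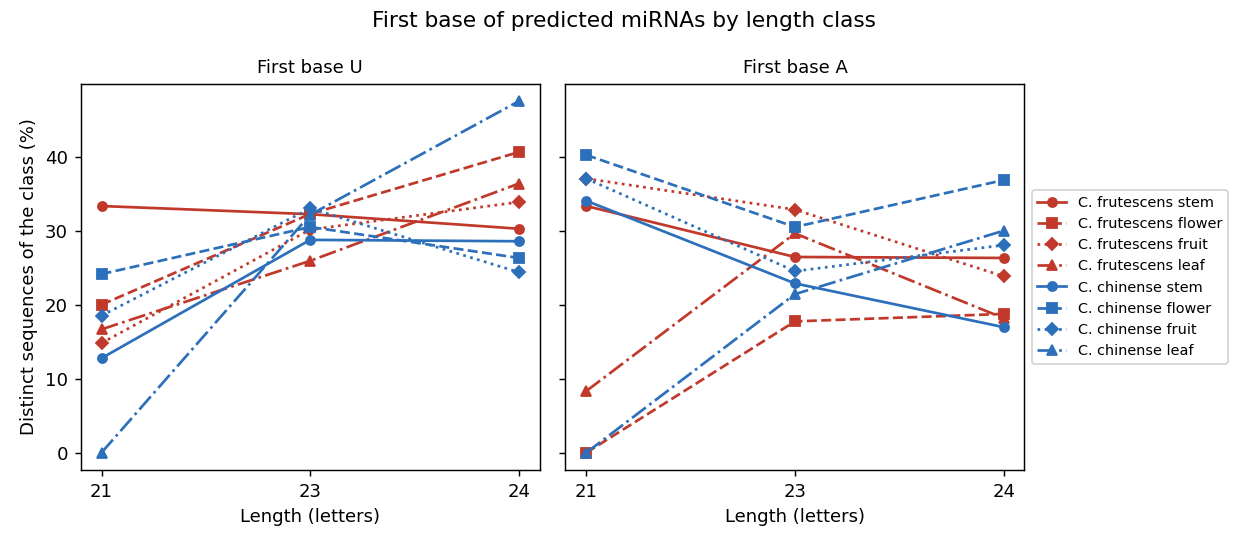
Share of the distinct sequences of a library (y axis, %) that begin with U (left) or A (right), at 21, 23 and 24 nt (x axis), with red lines for C. frutescens, blue lines for C. chinense and 1 line per organ. U is lower at 21 nt than at 23 and 24 nt in every library but C. frutescens stem, and A shows no common order.

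For a first A no test passed. A opened 23.8% ± 17.7 of the 21-nt sequences, 24.9% ± 6.84 of those of 24 nt and 25.8% ± 5.09 of those of 23 nt (SD, n = 8 libraries each). The share was higher at 21 nt in 5 of 8 libraries against either class, and the exact two-sided paired permutation tests gave p = 0.867 against 24 nt and p = 0.719 against 23 nt (Benjamini-Hochberg adjusted p = 0.867 and 0.816). C. frutescens flower and C. chinense leaf had no 21-nt sequence with a first A, out of 5 and 3. At the other end of the molecule, 66 of the 212 sequences ended in A (31.1%) and 53 in U (25.0%). The mean content of G and C per library was 51.2% ± 3.59 at 21 nt, 49.6% ± 3.74 at 24 nt and 49.4% ± 3.18 at 23 nt (SD, n = 8).

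Almost every 21-nt prediction belonged to 1 library. Of the 212 sequences, 209 were listed in 1 library and 3 in more (1.42%), against 23 of 1105 at 24 nt (2.08%) and 71 of 1171 at 23 nt (6.06%). By species, 49 were listed in C. frutescens only, 162 in C. chinense only and 1 in both (0.472%), against 13 of 1105 at 24 nt (1.18%) and 30 of 1171 at 23 nt (2.56%). The first of the shared sequences, with the first letters cUCUCGUA, is the C. frutescens sequence of 31 reads described above. The other two are printed here because they link organs or species.
Leaf of both species, 3p: gGAAAGCUcacugggauagau
C. chinense stem and flower, 5p: gUCACAACuuauaguccauug
The first line, from leaf, had 3 reads in C. frutescens leaf and 3 reads in C. chinense leaf, and is the 21-nt sequence found in both species. The second had 3 reads in C. chinense stem and 4 reads in C. chinense flower.

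Taken per library, 11.0% ± 11.7 of the 21-nt sequences were also listed elsewhere, against 9.32% ± 6.65 at 24 nt and 19.7% ± 8.85 at 23 nt (SD, n = 8 libraries each). The mean at 21 nt is raised by C. chinense leaf, where 1 of 3 sequences was shared. The difference of -8.69 points from 23 nt was negative in 7 of 8 libraries (exact two-sided paired permutation test over libraries, p = 0.0234, Benjamini-Hochberg adjusted p = 0.0781). The difference of 1.69 points from 24 nt had p = 0.688 in the same exact test (adjusted p = 0.816), and without C. chinense leaf it was -1.05 points. None passed. A sequence shared by libraries enters the value of each of them, so these values are not fully independent. A sequence listed at 3 reads in 1 library can be missed in another, since the sheets hold no lone prediction below 3 reads.

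Sharing by identical text leaves out sequences that differ only at their ends. An exact overlap of at least 18 letters with another predicted sequence was found for 14 of the 212 sequences (6.60%), in each case with 1 in another library. With these, 17 of 212 (8.02%) had the same or an overlapping sequence in another library, against 92 of 1105 at 24 nt (8.33%) and 181 of 1171 at 23 nt (15.5%). The 14 sequences formed 18 distinct pairs with overlapping sequences. In 14 of these pairs the partner was longer than 21 nt, in 3 it was shorter and in 1 both were of 21 nt, and in 3 pairs both sequences began at the same letter.

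The fullest set of such length variants came from the stem of both species, and is printed because it holds 2 sequences of 21 nt.
C. frutescens stem, 21 nt, 5 reads: gCACCGGUcgucucgucccuu
C. chinense stem, 21 nt, 6 reads: gUGCACCGgucgucucguccc
C. frutescens stem, 22 nt, 30 reads: ugcaccggucgucucgucccuu
C. chinense stem, 23 nt, 3 reads: ugugcaccggucgucucgucccu
The first line is the 22-nt sequence of the same library without its first letter, a U, and had 5 reads against 30 for the longer form. The second line lies within the 23-nt sequence of the same library, again without a first U. The first line is also the 3p arm of the C. frutescens stem precursor Cap-m0201, whose 5p arm of 20 nt had 8 reads, and the arms formed 17 base pairs, the highest number among the 18 precursors.

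A second set joined C. chinense stem with stem and leaf of C. frutescens.
C. chinense stem, 21 nt, 6 reads: aGAGGUCCccgguucgaaccc
C. frutescens leaf, 23 nt, 5 reads: uagagguccccgguucgaacccg
C. frutescens stem, 24 nt, 3 reads: uagagguccccgguucgaacccgg
Here too the longer forms start 1 letter earlier, with U. These sequences hold the letters GGUUCGA, with which the B box of transfer RNA genes begins, searched on the printed strand only. This motif occurred in 1 of 212 sequences of 21 nt (0.472%), 2 of 528 at 22 nt, 2 of 1171 at 23 nt and 2 of 1105 at 24 nt. Over all 18 pairs, 5 of the 12 distinct longer partners began with U, and they overlapped 4 of the 14 sequences of 21 nt.

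With up to 2 mismatches over at least 18 letters, 21 of the 212 sequences (9.91%) had a relative among the predictions, and 191 had none. Relatives were not counted for the sequences of 23 and 24 nt. Cap-m0231-5p of C. frutescens stem, with 13 reads, had 4 such relatives. They included a 22-nt sequence of the same library with 4 reads and 1 mismatch over 21 letters, and the 21-nt sequence gGAGGGCGcgacggucgcugc of C. frutescens flower, with 3 reads and 2 mismatches over 20 letters. The sequence cUAUCGACcauacgcuccccc, with 8 reads in C. chinense stem, differed by 1 mismatch from a 24-nt sequence of C. frutescens leaf and C. chinense flower.

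No 21-nt prediction contained, or lay within, a printed sequence of the conserved miRNA sheets, and the same was true of all 1105 sequences of 24 nt and all 1171 of 23 nt. Within 2 mismatches over 21 letters, 2 of the 212 had a relative there, both in C. frutescens fruit, a count not made at 23 and 24 nt.
Cap-m0962-5p, C. frutescens fruit, 1 read: aAUGGGUGgguugguaagcuu
Listed as stu-miR482a-5p: ggaauugguggguuggaaagcuug
C. frutescens fruit, 21 nt, 4 reads: gACCUACUuugacuuaacaca
Listed as stu-miR8019-3p: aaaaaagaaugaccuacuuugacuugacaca
Cap-m0962-5p differs from the potato-named entry by 2 mismatches, and its own partner arm of 23 nt had 12 reads. miR482 is a family that targets NBS-LRR resistance genes, through its 3p arm in the Solanaceae. The second pair differs by 1 mismatch.

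Seeds were nearly all different. The 212 sequences held 207 distinct seeds, and 5 seeds occurred in 2 sequences each, a count not made at 23 and 24 nt. One such seed, UGAGAGA, was held by gUGAGAGAaguaagacugcaa of C. frutescens fruit, with 4 reads, and by Cap-m0225-5p of C. chinense stem, with 3 reads. Another, CUGACGU, was held by gCUGACGUggcaccuuuauua of C. frutescens fruit, with 1 read, and gCUGACGUggacaccacuguu of C. chinense flower, with 4 reads.

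The remaining best-read sequences of single libraries had between 3 and 8 reads and are printed to show the level at which each library's 21-nt set lies.
C. frutescens fruit, 7 reads: aAGUAGACacgcguccuacgu
C. frutescens leaf, 8 reads: cCACGAUUucgagguuggacc
C. chinense flower, 7 reads: aAGAGAGAguaucguuacuga
C. chinense flower, 7 reads: cGCCGCCUaugccauucccua
C. chinense fruit, 5 reads: aAUUCACCgucucauguugcu
C. chinense fruit, 5 reads: aUUCCAUGgggguuguauacu
C. chinense leaf, 3 reads: gGAGUUGGcuggggcggcuag
None of these was listed in a second library. C. chinense flower, with 87 sequences of 21 nt the highest number, reached no more than 7 reads for any of them, and C. chinense fruit no more than 5. The single best-read sequences of C. frutescens flower and fruit had 17 and 20 reads, and that of C. chinense stem had 14. At 5 reads or more there was 1 of 5 sequences in C. frutescens flower, against 14 of 87 in C. chinense flower. For fruit it was 5 of 27 in C. frutescens and 2 of 27 in C. chinense.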

How the data were processed

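Small RNA was measured in 8 libraries, 1 for each of 4 organs in 2 species. Per the labels' protocols, a NucleoSpin kit gave the total RNA, and a TruSeq kit for small RNA gave the libraries, sequenced on a Genome Analyser II. The authors' values, deposited in 16 sheets (8 of conserved and 8 of predicted miRNAs), are raw read counts per entry, per the file headers. Trimming, alignment and the tool behind the predictions are not given in the sources consulted. The conserved sheets were used for sequence matches only, and 1 line each was empty in the copies of C. chinense stem and leaf used here.

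Entries of a library with the same text were joined to 1 distinct sequence and their reads summed (pandas 2.3.3 and numpy 2.4.6 under Python 3.11.15). Classes of 21, 23 and 24 letters were compared within each library by 5 measures, in 10 exact two-sided paired permutation tests (sign flips over libraries with at least 3 sequences in each class), with Benjamini-Hochberg adjustment over the 10 and a threshold of 0.05. The smallest p that 8 pairs allow is 0.00781. Species were compared over 4 organs. Of all these tests, only that of first U against 24 letters was run on simulated data. Libraries are pools of biological replicates, so p-values measure the spread between these libraries. Exact intervals were computed with scipy 1.17.1, duplexes with RNAduplex of ViennaRNA 2.7.2 and plots with matplotlib 3.10.9. Sequences named are the 8 with most reads, the first 2 of each library, those in 2 or more libraries, precursors with 2 arms of 21 letters, and the best-read sequences of 23 and 24 letters; those in the sets of length variants, relatives and shared seeds were chosen after their values were seen. The 21-letter class and the measures were chosen with earlier results of these data known. Alternatives were a minimum of 5 reads, every entry, 1 sequence per cluster sharing 16 letters, removal of sequences in the conserved sheets, at least 10 sequences per class, weighting by reads, no pairing, and each library left out in turn.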

Additional observations from a re-analysis of the deposited data

Results flagged for a closer look

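In C. frutescens leaf 13.5% of the distinct predicted sequences were of 21 nt, far from the 2.20% to 3.68% of the other 3 C. frutescens libraries. C. chinense leaf stood apart from the other C. chinense libraries in the share of 21-nt sequences that begin with A, 0% against 34.0% to 40.2%, and in the share listed in another library, 33.3% against 0% to 2.13%, in both cases with 3 sequences. Its difference in first U between 21 and 24 nt, -47.5 points, lay far below the -20.6 to 3.07 points of the other 7 libraries. In all, 24 such groups of values were examined. Chance flags about 1 in 20 groups where values are independent, normal and of equal spread. That rate need not hold here, since shares that rest on as few as 3 sequences spread more and the groups reuse the same sequences. The difference between the species in the share of 21-nt sequences (C. frutescens minus C. chinense) was 10.9 points in leaf and -7.47 to -6.59 points in the other organs, and that in the share of 21-nt reads 6.85 points in leaf and -5.30 to -3.33 points elsewhere. These differences between organs were not tested, with 1 library per species and organ.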

How the results depend on the processing

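Of 182 recomputed values, 158 kept their direction and side of the threshold, 22 turned sign and 2 passed the threshold. With all libraries and pairing by library no comparison had passed. Many of the 158 could not change. Removing sequences in the conserved sheets took none of 21, 23 or 24 nt. Tests with 3 or 5 libraries, or paired over 4 organs, cannot go below 0.05. Leaving out either library of an organ gives the same species value, which is then counted again. The 2 that passed are the shares of first U without the replicate block, a setting that ignores that both classes come from the same libraries (-16.0 points against 24 nt and -13.1 points against 23 nt, exact permutation test, adjusted p = 0.0101 for both, against a range of 0.0101 to 0.50 over all alternatives of either comparison). Differences in first U stayed negative under all alternatives run, from -24.3 to -10.8 points against 24 nt and from -22.7 to -9.20 points against 23 nt, as did those in shared sequences against 23 nt, from -16.0 to -6.56 points, and in median log2 reads against both classes. With at least 5 reads, 3 libraries remained for the tests between length classes. There the share of first A turned to 10.1 points against 24 nt and 5.18 points against 23 nt. The 5p share turned to -15.7 and -16.5 points, and the share listed elsewhere against 24 nt to -4.16 points. The species difference in reads, which kept all 8 libraries, turned to 0.273 points. With at least 10 sequences per class (5 libraries, smallest p 0.0625) first A turned to 6.56 and 3.26 points and the share listed elsewhere against 24 nt to -3.44 points. The last was -2.16 points with 1 sequence per cluster and, in alternatives added after seeing the data, -3.09 points with overlaps of 18 letters and -0.617 points without entries under 3 reads, where first A against 24 nt was 1.41 points. The cause of these turns was not tested.

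With each library left out in turn, first U lay between -18.7 and -11.5 points against 24 nt and between -15.1 and -10.4 points against 23 nt, first A between -3.71 and 3.01 and between -4.07 and 0.777, the 5p share between 5.41 and 10.5 and between -0.553 and 7.12, and the share listed elsewhere between -1.05 and 2.80 and between -10.1 and -6.56. First A turned positive against both classes without C. frutescens flower, C. frutescens leaf or C. chinense leaf, the 5p share turned negative against 23 nt without either fruit library, and the share listed elsewhere turned negative against 24 nt without C. chinense leaf. The species difference lay between -7.03 and -0.919 points for sequences and between -4.39 and -0.339 points for reads. In the 21-nt class 60.8% of the listings stand at 3 reads, the lowest number of a lone prediction in the sheets, so how many sequences lie below it is unknown. C. frutescens flower and C. chinense leaf give their shares from 5 and 3 sequences of 21 nt.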
